A study of Mus musculus with 8 samples.

Results

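Sost and 5 other genes that mark the passage from osteoblast to osteocyte, Dmp1, Phex, Mepe, Pdpn and Fam20c, were followed in calvarial osteoblastic cells of wild type (WT) and Def6-/- mice. They were chosen by symbol among 24421 genes, with earlier results of these data known, and all 6 were listed for all 8 libraries. Sost was taken up because it stood out between the genotypes at day 12, so the values of Sost, and the difference between the genotypes at day 12 for all 6 genes, are given as a description with no test. RNA came from 8 libraries in 4 groups of 2: WT at day 0, WT at day 12, Def6-/- at day 0 and Def6-/- at day 12. All cells were primary osteoblastic cells freed by enzymes from the skull vault of newborn C57BL/6 mice aged 0 to 3 days. Def6-/- mice lack Def6 in every cell of the body, and their WT littermates were the controls. The deletion is thus not particular to osteoblasts, and the cultures were mixed primary cells in which every cell type carries it. Day 12 cells had spent 12 days in osteogenic medium, to which ascorbic acid (100 µg/mL) and β-glycerophosphate (10 mM) had been added, while day 0 cells were taken at its start.

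As background, an osteocyte is an osteoblast that has become buried in the bone matrix it made and has grown long dendrites through fine canals. Podoplanin, the product of Pdpn, is an early marker of that dendrite growth. Dmp1 and Mepe encode acidic phosphoproteins of the mineralizing matrix that belong to the SIBLING family, Phex encodes a membrane endopeptidase whose loss causes phosphate wasting, and Fam20c encodes the Golgi kinase that phosphorylates secreted proteins, Dmp1 among them. Sost, the latest of the set to come on, encodes sclerostin, a secreted antagonist that binds the Wnt co-receptors Lrp5 and Lrp6 with the help of Lrp4 and restrains bone formation.

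Sost lies on the minus strand of chromosome 11, from 101962458 to 101967015 in GRCm38 (mm10), and Dmp1 and Mepe lie on the plus strand of chromosome 5, from 104202613 to 104214102 and from 104325329 to 104338611. The 250 bases upstream of the RefSeq start of each are shown because Sost was selected on its difference between the genotypes at day 12 and because Dmp1 and Mepe, neighbours on their chromosome, went from few or no reads to more. They are RefSeq sequences of GRCm38.p6, written 5′ to 3′ on the strand of the gene, and capitals mark motif matches. They are chr11:101967016-101967265 (minus strand), chr5:104202367-104202616 (plus strand) and chr5:104325079-104325328 (plus strand).
Sost: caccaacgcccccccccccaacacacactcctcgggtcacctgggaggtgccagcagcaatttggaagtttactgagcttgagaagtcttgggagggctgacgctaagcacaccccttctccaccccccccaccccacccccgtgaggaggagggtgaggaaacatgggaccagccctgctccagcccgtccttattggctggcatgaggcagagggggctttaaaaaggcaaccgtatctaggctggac
Dmp1: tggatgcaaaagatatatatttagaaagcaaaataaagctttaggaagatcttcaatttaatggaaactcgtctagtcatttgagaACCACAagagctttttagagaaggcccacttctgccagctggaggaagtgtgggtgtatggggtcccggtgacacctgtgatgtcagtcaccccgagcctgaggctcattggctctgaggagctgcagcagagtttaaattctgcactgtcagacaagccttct
Mepe: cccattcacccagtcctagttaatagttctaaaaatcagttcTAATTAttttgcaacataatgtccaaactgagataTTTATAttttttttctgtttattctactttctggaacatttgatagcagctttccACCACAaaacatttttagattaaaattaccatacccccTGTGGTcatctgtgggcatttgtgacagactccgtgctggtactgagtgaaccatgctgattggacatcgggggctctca

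The following 6 motifs were searched on both strands: the RUNX core TGTGGT, the homeodomain core TAATTA, the MEF2 letters CTANNNNTAG, the TATA box TATAAA, the AP-1 letters TGANTCA and the interferon response core (GAAA, any 2 bases, GAAA). The Dmp1 window held 1 RUNX core, on the minus strand and beginning 164 bases before the start. The Mepe window held 2 RUNX cores, beginning 118 bases (minus strand) and 80 bases (plus strand) before the start, and also 1 TAATTA at 208 bases and 1 TATAAA on the minus strand at 173 bases, none of which overlapped. Among the 32851 promoters of the same length in the table, 14.05% held a RUNX core, 4.84% TAATTA and 12.37% TATAAA. The Sost window held none of these letters, nor did the windows of Phex, Pdpn and Fam20c or the other RefSeq start of Dmp1. The shares for the motifs with no match here were 3.202% for MEF2, 6.749% for AP-1 and 2.977% for the interferon response core. A match in these letters is a description and was not tied to binding of a factor.

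Values are given as reads, recovered from the deposited CPM, and as normalised CPM, in which reads are scaled to all reads on genes of the library with TMM factors. Each library held between 2414856 and 3482837 reads on genes, which was 28.8% to 35.3% of all its reads. Def6 had 112 to 186 reads in the 4 WT libraries and 0 to 2 in the 4 Def6-/- libraries, so the labels matched. For the osteoblast label, Col1a1, Alpl, Ibsp, Bglap and Sp7 were followed. Their summed normalised CPM was 13269 to 27440 at day 0 and 45692 to 66689 at day 12 over both genotypes. Col1a1 made up nearly all of it (13200 in the lowest library and 63688.5 in the highest), so the sum mainly describes Col1a1. Its day change missed an adjusted p of 0.05 by limma (0.0505 in WT and 0.0803 in Def6-/- cells), as did that of Sp7. Those of Alpl, Ibsp and Bglap passed in both genotypes. Bglap, which encodes osteocalcin, had no read at day 0. Replicates differed from each other beyond sampling noise in all 4 groups, most of all the WT libraries of day 0 (chi-square per gene 31.9, against 4.28 to 11.8 in the other 3 groups). The methods call them biological replicates. The labels do not say whether they came from separate animals, so p-values measure the spread between these libraries. Because these are bulk RNA samples, a smaller share of cells of a type and less RNA per cell cannot be told apart.

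Changes were tested with limma on log2(normalised CPM + 1) in one fit of the 4 group means, over the 12348 genes whose deposited CPM averaged 1 or more in any of the groups. The log2 scale with its pseudocount of 1 understates changes of genes with few reads, so folds from summed reads are given beside it. All 6 genes entered the test. Sost, Dmp1, Phex and Mepe entered only through day 12, where they were highest, so that passing the filter says nothing further about them. For Dmp1, Phex and Mepe the adjusted p over all 16652 genes with any read, called no filter below, is therefore given beside that of the filtered fit. Dmp1 and Phex had reads at day 0 in both genotypes and enter that set without day 12. Mepe had no read at day 0 and enters it too only through day 12. Where libraries of different days or genotypes are said not to overlap, the share of all genes tested that separate so was not counted. Non-overlap is thus a description.

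Sost had 0 reads in all 4 libraries of day 0 and was seen almost wholly in Def6-/- cells at day 12. In WT cells at day 12 it had 2 reads in replicate 1 and 0 in replicate 2, and in Def6-/- cells it had 14 and 12 reads. The floor set for a count of 0 is 3 reads, which was between 1.02 and 1.18 normalised CPM in the libraries of day 0 and 1.26 in the second WT library of day 12. The Def6-/- libraries of day 12 were thus the only ones in which Sost was above this floor. Their 14 and 12 reads have exact Poisson 95% intervals of 7.65 to 23.5 and 6.20 to 21.0 reads, and that of the 2 WT reads is 0.242 to 7.22 reads. The libraries differ in depth, with 3482837 reads on genes in WT replicate 1 and 2528093 and 2414856 in the Def6-/- libraries. Intervals in reads are thus not on a common scale and are not set against each other. These intervals cover counting error only, since no molecular identifiers are named for these libraries.

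In normalised CPM, Sost was at 5.75 and 5.12 in Def6-/- cells at day 12 (5.44 ± 0.442, SD, n = 2) and at 0.574 and 0 in WT cells. The pair of genotypes did not overlap. Summed over replicates, 26 reads stood against 2, a ratio of 16.0 after scaling with a 95% counting interval of 4.0 to 139. The interval states how loosely so few reads fix the ratio and is no test, because Sost was selected on this contrast. Against its own day 0, Sost in Def6-/- cells was at least 10.1-fold higher at day 12, taking 3 reads over the group as the floor, and no fold is given in WT cells, where neither day exceeded 3 reads. On the log2 scale the difference between the genotypes at day 12 was 2.36 (standard error 0.41). It was 2.04 without replicate 2 of WT and 2.66 without replicate 1, while the CPM as deposited, in which 1 read is worth less, gave 1.35 and a pseudocount of 0.1 gave 4.41. The log2 value of Sost thus depended on the scaling and the pseudocount. Its direction was the same in all 15 alternatives, but these refit the same few reads on which Sost was selected and add no support.

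**Figure D1:**
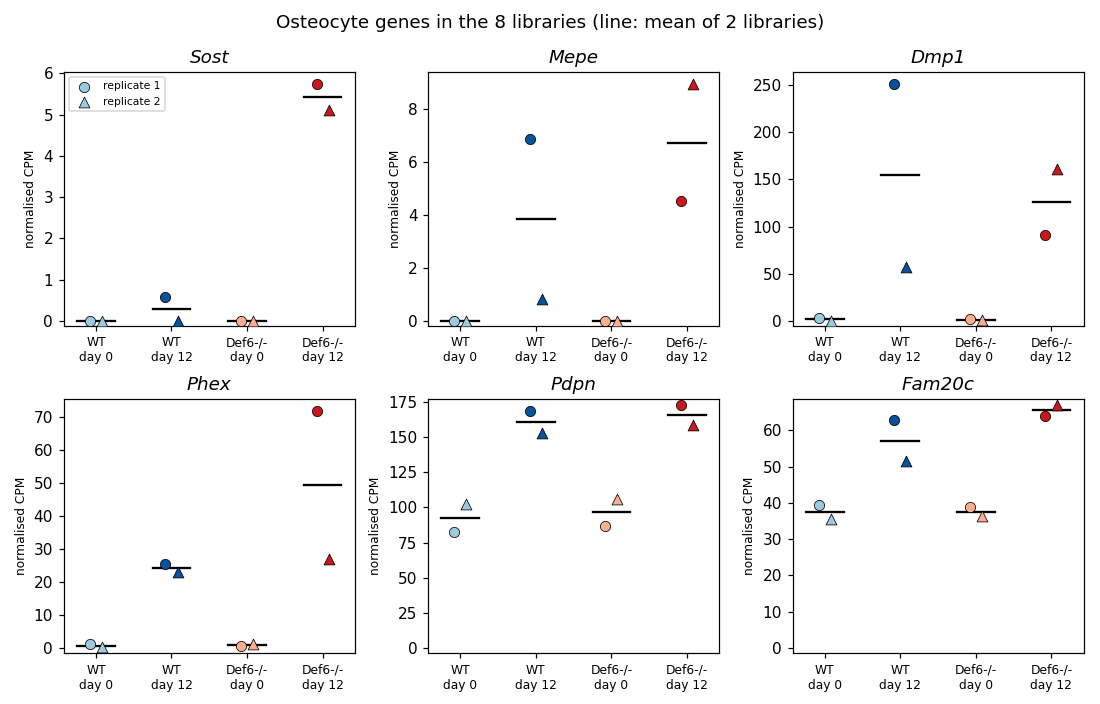
Normalised CPM of the 6 osteocyte genes in each of the 8 libraries, with a panel for each gene, the 4 groups along the horizontal axis, a circle for replicate 1, a triangle for replicate 2 and a line at the mean of each group. Sost is above 5 in both Def6-/- libraries of day 12 and below 1 in all others, Dmp1 and Phex are near 0 at day 0, and the replicates of Dmp1 and Mepe in WT cells at day 12 lie far apart.

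Dmp1 and Mepe, the matrix phosphoproteins, were at or near 0 at day 0 and were read in every library of day 12. Dmp1 had 8 and 0 reads in WT cells at day 0 and 876 and 136 at day 12. In Def6-/- cells it had 5 and 1 reads at day 0 and 222 and 376 at day 12. The groups of day 0 and day 12 did not overlap in either genotype, but the replicates of WT at day 12 stood apart from each other and enclosed both Def6-/- libraries. In normalised CPM these were 251 and 57.0 in WT cells and 91.2 and 161 in Def6-/- cells. Dmp1 rose by a log2 change of 5.89 (standard error 0.81, adjusted p = 0.00159, limma with Benjamini-Hochberg adjustment) in WT cells and of 5.96 (adjusted p = 0.00148 by limma) in Def6-/- cells. With no filter the adjusted p by limma was 0.00267 and 0.00242. From summed reads the rises were 116-fold (95% counting interval 58.4 to 268) and 117-fold (53.3 to 319). By this rule, an adjusted p under 0.05, 12.7% of the genes tested were higher at day 12 in WT cells and 12% in Def6-/- cells, and 5.63% and 4.79% were lower.

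Mepe had no read at day 0 in any library. At day 12 it had 24 and 2 reads in WT cells and 11 and 21 in Def6-/- cells, or 6.89, 0.838, 4.52 and 8.97 normalised CPM. The second WT library was again the lowest, as for Dmp1, and was below the floor of 1.26 there. Set against the floor of 3 reads over each group of day 0, Mepe at day 12 was at least 7.92-fold higher for WT and at least 12.5-fold higher for Def6-/- cells. The log2 change was 2.89 (standard error 0.65, adjusted p = 0.0159 by limma) in Def6-/- cells and 1.93 (standard error 0.65, adjusted p = 0.0727 by limma) in WT cells, which missed the threshold. With no filter the adjusted p by limma was 0.0165 and 0.0745. Because Mepe entered both sets of genes only through day 12, its p-values are given as a description and add no support to the rise. In WT cells 24 of the 26 reads of day 12 came from replicate 1, and the WT change was 0.87 without that library and 2.99 without replicate 2. With all libraries, the WT change passed the threshold with a pseudocount of 0.1 (4.68) and with DESeq2 (5.85), but not with edgeR (6.51). The missed threshold thus also depended on the pseudocount and the method. The Def6-/- change lost its call without either Def6-/- library of day 0 (2.88 in both fits) or without replicate 2 of Def6-/- day 12 (2.47).

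Phex and Fam20c, the enzymes, behaved differently from each other. Phex had 3 and 1 reads in WT cells and 2 and 4 in Def6-/- cells at day 0, then 89 and 55 in WT cells and 175 and 63 in Def6-/- cells at day 12. Each library of day 12 was above each of day 0. Its log2 change was 3.88 (standard error 0.47, adjusted p = 0.000874 by limma) in WT cells and 4.47 (standard error 0.47, adjusted p = 0.000447 by limma) in Def6-/- cells. With no filter the adjusted p by limma was 0.00167 and 0.000907. Summed reads gave 32.9-fold (12.6 to 122) and 46.4-fold (21.0 to 127.8), with 95% counting intervals. Dmp1 and Phex kept their calls in both genotypes under all 15 alternatives. Leaving out a library moved the change of Dmp1 between 4.81 (without replicate 1 of WT day 12) and 6.96 (without replicate 2 of WT day 12) in WT cells and between 5.40 and 6.50 (without replicate 2 or replicate 1 of Def6-/- day 0) in Def6-/- cells. The change of Phex moved between 3.53 and 4.23 (without replicate 2 or replicate 1 of WT day 0) in WT cells and between 3.78 and 5.16 (without replicate 1 or replicate 2 of Def6-/- day 12) in Def6-/- cells. Phex lies on the minus strand of the X chromosome, from 157162075 to 157415312, and 3 small annotated genes lie within its span (a miRNA, a snoRNA and a processed pseudogene). Whether counting used strand is not given in the sources used here.

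Fam20c was already read at day 0, with 100 and 101 reads in WT cells and 103 and 107 in Def6-/- cells. At day 12 it had 219 and 123 reads in WT cells and 156 and 157 in Def6-/- cells, which in normalised CPM was 62.9 and 51.5 against 64.1 and 67.0. All 4 libraries of day 12 were above all 4 of day 0, which ran from 35.7 to 39.5. The rise of 0.79 on the log2 scale in Def6-/- cells passed the test (standard error 0.19, adjusted p = 0.0246 by limma), and the value of 0.59 in WT cells did not (adjusted p = 0.0688 by limma). These sides of the threshold were not stable. The Def6-/- call was lost in 7 of 15 alternatives, among them DESeq2, the CPM as deposited and the fits without any 1 of the 4 Def6-/- libraries (0.74 to 0.83) or without replicate 1 of WT day 12 (0.73), and the WT value passed without replicate 1 (0.66) or replicate 2 (0.52) of WT day 0. Fam20c lies on the plus strand of chromosome 5, from 138754514 to 138810077, far from Dmp1 and Mepe.

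Pdpn, the dendrite gene, had the most reads of the set at day 0, with 209 and 289 in WT cells and 230 and 312 in Def6-/- cells. At day 12 it had 587 and 365 reads in WT cells and 420 and 372 in Def6-/- cells. In normalised CPM the libraries of day 0 lay between 82.5 and 106 and those of day 12 between 153 and 172, so the days did not overlap in either genotype. The rise was 0.80 on the log2 scale in WT cells (standard error 0.19, adjusted p = 0.0205 by limma) and 0.78 in Def6-/- cells (adjusted p = 0.0235 by limma), or 1.75-fold and 1.71-fold from summed reads. The WT call was lost in 4 alternatives, without replicate 1 (0.69) or replicate 2 (0.87) of WT day 12 among them. The Def6-/- call was lost in 7, which were the CPM as deposited and the fits without any 1 of the 4 Def6-/- libraries (0.64 to 0.93) or of the WT libraries of day 12 (0.72 and 0.78). Pdpn lies on the minus strand of chromosome 4, from 143267431 to 143299564.

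Levels of different genes were compared per kilobase of exon, in normalised CPM per kb. At day 0 the order was the same in both genotypes: Pdpn led with 50.8 in WT and 53.1 in Def6-/- cells, followed by Fam20c (5.70 and 5.70), Dmp1 (0.571 and 0.402) and Phex (0.122 and 0.168), with Sost and Mepe at 0. Dmp1 and Phex were not apart beyond their spread at day 0. At day 12 Dmp1 passed Fam20c and stood second, at 55.8 ± 49.8 for WT and 45.5 ± 17.7 for Def6-/- cells (SD, n = 2), behind Pdpn at 88.4 ± 6.08 and 91.2 ± 5.31. Fam20c followed with 8.68 and 9.95, then Phex with 3.86 and 7.85, Mepe with 2.30 and 4.01, and Sost last with 0.139 and 2.63. In WT cells the libraries of Pdpn and Dmp1 overlapped at day 12 (84.1 and 92.7 against 20.6 and 91.0), as did those of Phex and Mepe (3.66 and 4.06 against 0.498 and 4.10). In Def6-/- cells Fam20c (9.72 and 10.2) overlapped with Phex (4.28 and 11.4), Phex with Mepe (2.69 and 5.33), and Mepe with Sost (2.48 and 2.78).

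Before osteogenic medium no difference between the genotypes passed the test for any of these genes. At day 0 the log2 difference of Def6-/- from WT cells was -0.05 for Dmp1 (standard error 0.81), 0.24 for Phex (0.47), 0.06 for Pdpn (0.19) and 0.00 for Fam20c (0.19), with adjusted p between 0.94 and 1 by limma. Sost and Mepe had no reads to compare. The libraries overlapped for each of the other 4 genes. By the rule of the study, an unadjusted p under 0.05 and more than 1.2-fold, 0.988% of the genes tested had higher and 1.31% lower levels in Def6-/- cells at day 0, and after adjustment 1 gene, Def6, had a p under 0.05. For Dmp1 and Phex a difference was not detectable at this depth, since no library held more than 8 reads.

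At day 12 the question of the study was which genes differ between Def6-/- and WT cells. Besides Sost, the libraries of the genotypes did not overlap for Phex and Fam20c, both higher in Def6-/- cells, and they overlapped for Dmp1, Mepe and Pdpn. How many of all genes tested separate in this way with 2 libraries per group was not counted, so no result is read from it. Phex was at 25.5 and 23.0 normalised CPM in WT cells and at 71.9 and 26.9 in Def6-/- cells, so most of the difference lay in 1 Def6-/- library. Its log2 difference of 0.84 (standard error 0.47) was 0.14 without that library, replicate 1, and 1.53 without replicate 2. For Fam20c the difference was 0.20 (standard error 0.19), for Mepe 0.96 (0.65), for Pdpn 0.04 (0.19) and for Dmp1 0.01 (0.81). The Dmp1 value ran from -1.05 without replicate 2 of WT to 1.07 without replicate 1 of WT, and that of Mepe from -0.09 to 2.0 in the same fits. By the rule of the study 0.81% of the genes tested had higher and 0.591% lower levels in Def6-/- cells, and Sost had been picked on this contrast, so nothing is read from its place in it.

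**Figure D2:**
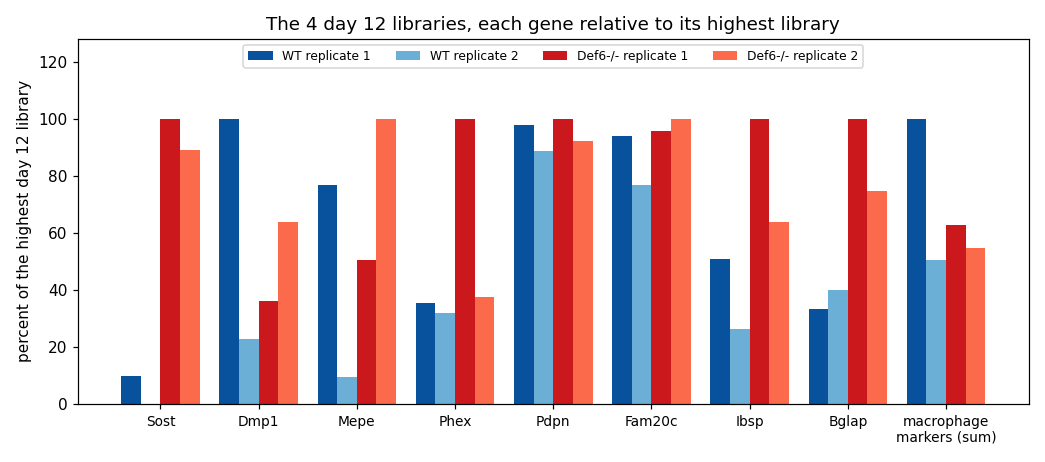
Level of each gene in the 4 libraries of day 12, in percent of its highest library, for the 6 osteocyte genes, Ibsp, Bglap and the sum of 10 macrophage markers. Dmp1 and the macrophage sum are highest in the first WT library, Mepe in the second Def6-/- library, and Phex, Sost, Ibsp and Bglap in the first Def6-/- library.

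The 6 genes did not share one order of libraries at day 12. Relative to its highest library, Dmp1 was at 100%, 22.7%, 36.3% and 63.8% in WT replicates 1 and 2 and Def6-/- replicates 1 and 2, and Mepe at 76.8%, 9.34%, 50.4% and 100%. Phex was at 35.6%, 32.1%, 100% and 37.4%, and Sost at 9.99%, 0%, 100% and 89.1%. Pdpn and Fam20c varied little, between 88.6% and 100% and between 76.8% and 100%. The second WT library was the lowest of the 4 for each of the 6 genes. Over all 8 libraries, the correlation of log2 levels between pairs of these genes ran from 0.66 (Sost and Dmp1) to 0.98 (Dmp1 and Fam20c), a description over n = 8 in which the libraries share their day and genotype.

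Whether the day change itself differed between the genotypes is described here as the difference of the changes, Def6-/- minus WT. It was 2.36 on the log2 scale for Sost (standard error 0.58), 0.96 for Mepe (0.91), 0.59 for Phex (0.67), 0.20 for Fam20c (0.27), 0.07 for Dmp1 (1.15) and -0.02 for Pdpn (0.27). These differences share the day 12 libraries with the comparison of genotypes. That of Mepe went to -0.09 without replicate 2 of WT day 12 and to 2.0 without replicate 1, and that of Phex to -0.10 without replicate 1 of Def6-/- day 12.

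**Figure D3:**
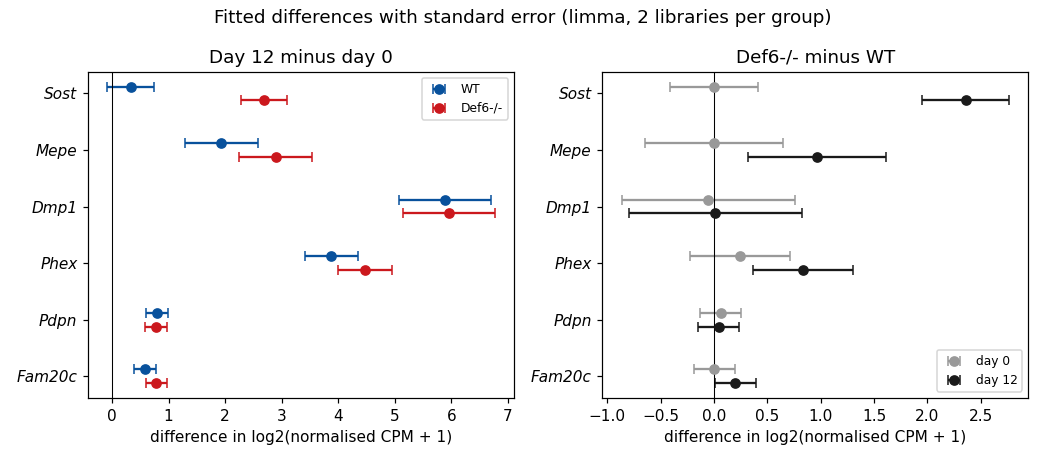
Log2 differences of the 6 osteocyte genes between days and between genotypes, on log2(normalised CPM + 1), with bars of 1 standard error from the limma fit of all 8 libraries. The day changes of Dmp1, between 5.89 and 5.96, are the largest, and at day 12 the genotype difference of Sost is 2.36 and those of Mepe (0.96), Phex (0.84), Fam20c (0.20), Pdpn (0.04) and Dmp1 (0.01) follow.

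The 3 genes whose log2 levels followed each member most closely over the 8 libraries were listed for the genes with fewest reads at day 0. For Sost they were Cfd (Pearson r = 0.96), Gpr107 (0.96) and Ptger4 (0.96). Cfd, which encodes the adipocyte-derived complement factor D, was at 3.28 and 6.4 normalised CPM in Def6-/- cells at day 12 and at 0.574 and 0.419 in WT cells. For Dmp1 they were Snx20, Slc9a9 and Pld3 (r between 0.992 and 0.997), for Phex Smpd3, Pth1r and Csad (0.99 each), and for Mepe Gal, Cyp2f2 and Aass (0.98 to 0.99). Smpd3, a sphingomyelinase needed for mineralization, was at 68.6 and 76.2 in WT cells and at 179 and 104 in Def6-/- cells at day 12, in normalised CPM, with the first Def6-/- library highest as for Phex. The libraries share day and genotype, so these values carry no test.

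Around the 6 genes, 7 lists of 52 genes of mineralization, sclerostin signaling and osteocyte formation were followed, and 48 of them entered the test. From day 0 to day 12, 20 of 48 rose and 5 fell in WT cells, and 18 rose and 5 fell in Def6-/- cells (adjusted p under 0.05 by limma). Bglap, Bglap2, Dlx3 and Dkk1 are among the genes that rose in both genotypes and entered the test only through day 12, where they were highest. Their rises, also where named below, are thus a description. Of the genes tested as a whole, 12.7% and 12% rose and 5.63% and 4.79% fell, which is the background for the counts of each list that follow. The median log2 change over the 48 genes was 0.61 and 0.51, against 0.00 and 0.01 over all genes tested. Several of these genes belong to the osteoblast genes that the study displays from the day 12 comparison, so the lists are no independent evidence of their direction there. At day 0 none of the 48 differed between the genotypes by the rule of the study, and at day 12 Bglap, Bglap2, Phospho1, Smpd3, Dlx3, Dlx5, Panx3 and Ptprz1 were higher in Def6-/- cells at an unadjusted p under 0.05, with 0 lower, against 0.81% higher and 0.591% lower over all genes tested. After adjustment over all genes tested p was 1 for each of the 8 (limma). The median at day 12 was 0.16, against -0.00 over all genes.

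Among the mineral matrix genes, 3 of 5 tested rose in each genotype. Ibsp, which encodes bone sialoprotein, had 26 and 2 reads in WT cells and 4 and 3 in Def6-/- cells at day 0, and 4397 and 1551 against 6054 and 3717 at day 12. Its log2 change was 7.69 in WT and 9.79 in Def6-/- cells (adjusted p = 0.00027 and 7.5e-05 by limma), larger than that of any of the 6 osteocyte genes. Bglap and Bglap2, near-identical copies between which counting may have split reads, had no read at day 0 and rose in both genotypes. Spp1, which encodes osteopontin, was at 2528 to 6742 normalised CPM at day 0 and 1999 to 3336 at day 12, and did not pass (log2 change -0.76 in WT and -0.10 in Def6-/- cells). Dspp, the dentin member of the cluster, had 1 read in each of 2 libraries of day 0 and none at day 12.

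Of 8 phosphate and mineral enzymes tested, 4 rose and 1 fell in WT cells, and 3 rose and 1 fell in Def6-/- cells. Alpl, the tissue-nonspecific alkaline phosphatase, rose by 3.65 and 4.45 on the log2 scale, and Phospho1, a phosphatase of matrix vesicles, by 2.60 and 3.17, in WT and Def6-/- cells. The phosphate transporter gene Slc20a1 fell by 2.02 and 2.01. Fgf23, the phosphate hormone of osteocytes that Dmp1 and Phex restrain, was not detectable at this depth, with 1 read in WT replicate 1 and 1 in Def6-/- replicate 2 at day 12 and 0 in the other 6 libraries. Of the relatives of Phex, the endopeptidase gene Mme rose by 3.01 and 2.81 and Ece1 fell by 0.75 and 0.93. Fam20a and Fam20b, the relatives of Fam20c, did not pass in either genotype (log2 changes between -0.71 and 0.33).

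Of 7 tested genes of sclerostin receptors, its paralog and Wnt targets, 2 rose in WT cells (Dkk1 and Nkd2) and 1 in Def6-/- cells (Dkk1), and none fell. Lrp4, Lrp5 and Lrp6 did not pass in either genotype, with log2 changes between 0.01 and 0.64, and did not differ by the rule of the study at day 12. Lrp5 was at 159 to 188 normalised CPM and Lrp6 at 215 to 250 in the 4 libraries of day 12. Dkk1, which encodes a further secreted Wnt antagonist, rose by 2.05 in WT cells and 3.23 in Def6-/- cells on the log2 scale (standard error 0.36), and Nkd2, a Wnt target, rose by 0.92 in WT cells. In normalised CPM Dkk1 was at 5.74 and 3.77 in WT cells and 8.21 and 8.54 in Def6-/- cells at day 12, with 20, 9, 20 and 20 reads. The Wnt target Axin2 lay between 8.54 and 11.5 in the same libraries, and the Sost paralog Sostdc1 between 1.23 and 13.2, both in normalised CPM.

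Among the regulators of the transition, 5 of 10 rose in each genotype. Mef2c, a factor known to act on the distant enhancer of Sost, rose by 2.47 in WT and 2.49 in Def6-/- cells on the log2 scale, Mef2a by 1.32 and 1.14, and Pth1r, the receptor for parathyroid hormone, which represses Sost, by 1.97 and 2.57. Dlx3 had 1 and 0 reads in WT cells and 2 and 2 in Def6-/- cells at day 0, and 25 and 21 against 54 and 36 at day 12. Runx2 and Sp7, the factors of osteoblast commitment, did not pass, with changes between 0.28 and 0.48. In the group of dendrite, junction and embedding, 4 of 10 rose and 3 fell in each genotype. Mmp13, a collagenase used in remodelling around osteocytes, rose by 2.23 and 2.67 and Panx3, a channel gene, by 2.17 and 3.12, while Cd44, a hyaluronan receptor that pairs with podoplanin, fell by 1.56 and 1.60, in WT and Def6-/- cells.

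**Figure D4:**
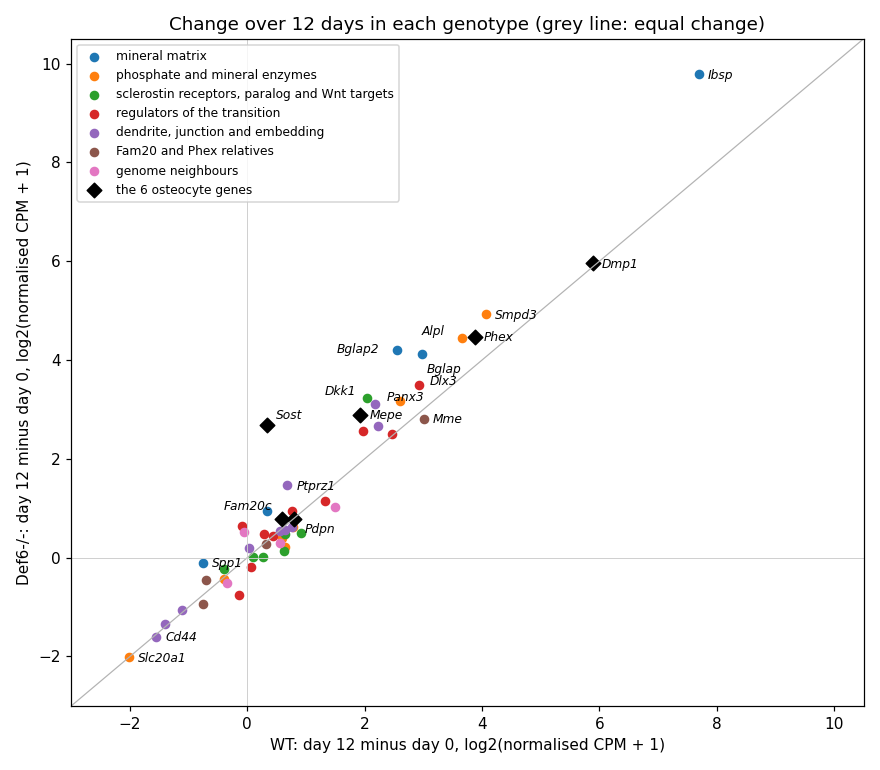
Log2 change from day 0 to day 12 in WT cells (horizontal axis) against Def6-/- cells (vertical axis) for the 6 osteocyte genes (black diamonds) and the 48 tested genes of the 7 lists (dots, coloured by list), with a grey line at equal change. Dmp1 lies on the line at 5.89 and 5.96, Sost lies above it at 0.33 and 2.68, and Ibsp is farthest from the origin at 7.69 and 9.79.

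Dmp1 and Mepe stand 123 kb apart, start to start, in a run of 7 genes over 427 kb of chromosome 5 that also holds Sparcl1, Dspp, Ibsp, Spp1 and Pkd2. Ibsp lies between them and was, like them, low at day 0 and present in all libraries of day 12. The second WT library was the lowest of day 12 for Dmp1, Ibsp, Mepe and Spp1. Sparcl1, a relative of osteonectin upstream of the run, was at 8.48 to 10.2 normalised CPM at day 0 and rose to 24.3 and 29.3 in WT and 20.9 and 21.3 in Def6-/- cells. Pkd2, the polycystin gene at the other end, was at 248 to 401 at day 0 and 229 to 279 at day 12 and did not pass. The neighbours of Sost, Meox1 and Dusp3, did not pass either. At day 12 Meox1 was at 2.58 and 13.0 in WT and 12.7 and 6.83 in Def6-/- cells, and Dusp3 at 68.3 and 46.9 against 52.6 and 55.1.

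**Figure D5:**
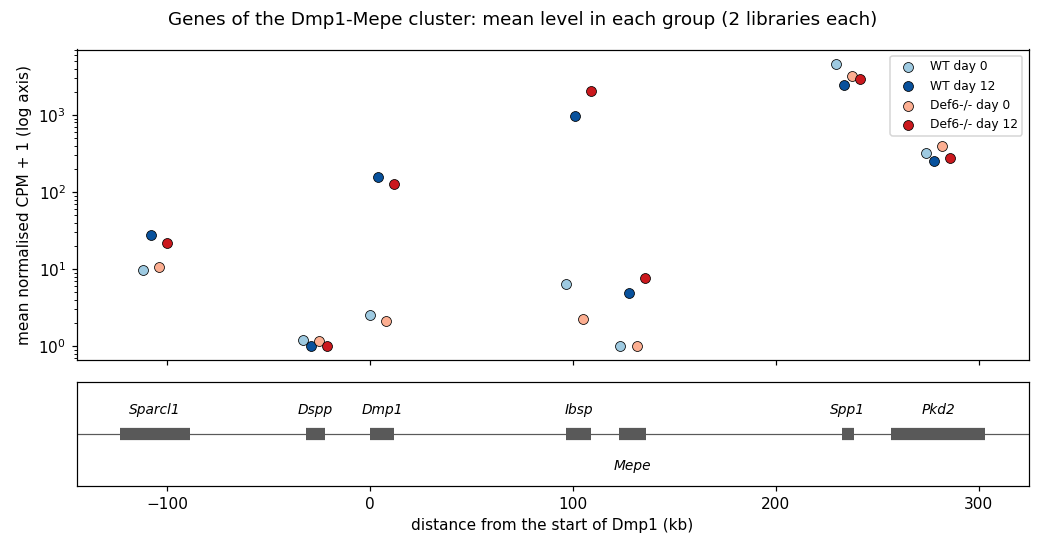
Mean of normalised CPM, plus 1 and on a log axis, of the 7 genes around Dmp1 and Mepe in each of the 4 groups (2 libraries each), by distance in kb from the start of Dmp1, with points shifted slightly sideways for sight and the extent of the genes drawn to scale in the lower panel. Dmp1, Ibsp and Mepe separate day 0 from day 12, Spp1 is the highest of the 7 in all 4 groups, and Dspp and Mepe at day 0 sit at or near the floor of the axis.

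Other cell types were present and moved with the day. All 10 macrophage markers rose in both genotypes (adjusted p under 0.05 by limma), and their summed normalised CPM went from 193 to 423 at day 0 to 3126 and 6186 in WT cells and 3373 to 3880 in Def6-/- cells at day 12. The first WT library, which had the highest Dmp1, also had the highest macrophage sum, and the second WT library, with the lowest Dmp1, the lowest. The Def6-/- libraries ran the other way. Relative to the highest library of day 12, replicates 1 and 2 were at 62.7% and 54.5% for the macrophage sum and at 36.3% and 63.8% for Dmp1. The 4 adipocyte markers that entered the test, of 6, had higher levels in Def6-/- than in WT cells of day 12 by the rule of the study. Adipoq and Cfd entered it only through Def6-/- cells of day 12, where they were highest, so their part in this count adds no support. Of all genes tested, 0.81% were higher by that rule. None of the 4 markers had an adjusted p under 0.05 by limma, and reads were few (Cfd 2 and 1 in WT cells, 8 and 15 in Def6-/- cells). The sum over 6 genes was 43.9 and 65.7 in Def6-/- cells against 14.7 and 18.1 in WT cells, a difference in the same direction as that of Sost. The chondrocyte sum over 4 markers was 1890 to 3736 at day 0 and 719 to 1103 at day 12, and was mostly Col2a1 (3570 in the highest library). Mean Acan was lower at day 12 as well (106 to 43.8 in WT and 113 to 36.1 in Def6-/- cells). Col9a1 went the other way (15.0 to 31.6 and 12.7 to 35.2), and Matn1 did not enter the test. Osteoclast markers summed to 15.0 to 28.4 at day 0 and 33.8 to 73.3 at day 12 over 4 genes, which did not move together. Mean Acp5 was lower at day 12 (8.60 to 4.60 in WT and 6.79 to 3.87 in Def6-/- cells) and did not pass. Atp6v0d2 rose in both genotypes (0.789 to 16.8 and 0.699 to 17.1). The highest sum, in replicate 2 of Def6-/- day 12, was mostly Mmp9 (55.5, against 11.9 in replicate 1). The 6 endothelial and lymphatic markers, Prox1 and Lyve1 among them, summed to between 1.18 and 7.54 in every library and none entered the test. The part of these cell types in the values of Sost, Dmp1 and the others was not tested.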

How the data were processed

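Poly-A RNA of 8 libraries was sequenced, and no molecular identifiers are named. The authors used HISAT2 (mm10) for alignment and HTSeq for counting, and deposited CPM made with edgeR, per all reads that HTSeq handled, with no composition factor. The labels also name fastp, and the annotation and versions are not given in the sources used here. The 5 rows that name no gene were left out.

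Reads were recovered as multiples of the CPM of 1 read: 99.957% of 114821 positive values came out whole within 0.02 read. CPM were rescaled to reads on genes with TMM factors, and log2(CPM + 1) was tested with limma 3.58.1 (lmFit, eBayes with a trend, R 4.3.3) over the 12348 genes whose deposited CPM averaged 1 or more in any group, and p-values were adjusted by Benjamini-Hochberg. Day changes were called at an adjusted p under 0.05, and genotype differences at an unadjusted p under 0.05 and more than 1.2-fold. edgeR 4.0.16 and DESeq2 1.42.0 on recovered reads were alternatives.

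The members, lists and tests were chosen with earlier results of these data known. Genes named are the 6 members, the listed genes and the 3 genes most correlated with each of Sost, Dmp1, Phex and Mepe. Positions are from GENCODE vM21 (GRCm38), and promoters from RefSeq (GRCm38.p6), which matched 6 of 6 members. Counting intervals are exact, at 95%, and cover counting error only.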

Additional observations from a re-analysis of the deposited data

How the results depend on the processing

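For the day change, 2260 genes were called in WT and 2076 in Def6-/- cells. With only the 2 groups compared these became 1093 and 3909, and leaving out a replicate gave 835 to 5708 (lowest without replicate 1 of WT day 12, highest without replicate 2 of WT day 0) and 927 to 4312 (lowest without replicate 1 of Def6-/- day 0, highest without replicate 2 of WT day 0). For the genotype at day 0, 284 genes were called, against 100 with only the 2 groups compared and 156 to 4584 when a replicate was left out (highest without replicate 2 of WT day 0). At day 12, 173 were called, against 459 with no filter, 85 with DESeq2, 554 with only the 2 groups compared and 121 to 458 when a replicate was left out (highest without replicate 1 of WT day 0). With CPM as deposited, the share of calls that were higher in Def6-/- cells was 72.3% at day 0, against 43.0%, and 70.0% at day 12, against 57.8%; with DESeq2 these shares were 16.5% and 71.8%, and with edgeR 32.3% and 59.1%. For the 6 genes, no called value changed sign in any alternative.

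The labels do not say what libraries with the same replicate number share. The correlation of their deviations was 0.09 (WT) and 0.15 (Def6-/-) for the day changes, and 0.33 (day 0) and 0.04 (day 12) for the genotype. With the replicate block the counts were 2553, 2281, 360 and 202, in the order given above, and no member gained or lost a call. Few reads limit the values of Sost and Mepe, with at most 14 and 24 in a library, and Fgf23, Dspp and Kl had at most 1.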
